A study of Mus musculus with 2 samples.

Results

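Natural killer-like cells were the members of cluster 1 in the authors' grouping of all cells from mouse submandibular gland stroma, 4032 of 15605 cells. They were taken from the cluster 1 column of each library in the table split by condition, and their identity was read from cluster 1 against the 11 other clusters of the table that joins both libraries. The ligated library held 3353 of them and the mock library 679, numbers recovered from the ratio of joint to split means.

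Donors of the submandibular and sublingual glands were female mice, 14 weeks old and of strain C57BL6/J, and no genetic change is named for either group. In the ligated group a metal clip closed the main ducts for 14 days, and in the mock group the ducts were exposed without a clip and the mice healed for 14 days. Each group is 1 droplet library (10X Genomics) pooled from 2 glands, so there is no replicate, no test and no p-value, and each difference below separates 2 libraries, not 2 conditions. Before capture both suspensions were depleted with beads of cells bearing EpCAM, an epithelial surface protein, and Ter119, a red cell protein, and then of dead cells, so shares describe the depleted suspension and not the gland.

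Natural killer cells are innate lymphocytes that kill target cells by releasing granules loaded with perforin and granzymes. Activating receptors, which signal through small adaptor proteins, and inhibitory receptors for MHC class I, including the Ly49 (Klra) and CD94/NKG2 (Klrd1 and Klrc) families, set whether a cell is attacked. Salivary glands are known for a tissue-resident population that carries CD49a (Itga1), CD103 (Itgae) and CD69 beside Eomes, and TGF-beta is known to promote that state.

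Granzymes are the effector products of these cells, Ncr1 is a receptor that marks them, and RUNX factors (Runx3 among them) are known regulators in killer lymphocytes. As chosen examples, the bases before the start of Gzmc, Gzmb and Ncr1 are shown with the RUNX core letters in capitals (TGTGGT, or ACCACA on the other strand). All are given 5′ to 3′ on the strand of the gene, 250 bases each, from RefSeq on GRCm38.p6: Gzmc from chr14:56234658-56234907 (minus strand), Gzmb from chr14:56262335-56262584 (minus strand) and Ncr1 from chr7:4337465-4337714 (plus strand).
Gzmc: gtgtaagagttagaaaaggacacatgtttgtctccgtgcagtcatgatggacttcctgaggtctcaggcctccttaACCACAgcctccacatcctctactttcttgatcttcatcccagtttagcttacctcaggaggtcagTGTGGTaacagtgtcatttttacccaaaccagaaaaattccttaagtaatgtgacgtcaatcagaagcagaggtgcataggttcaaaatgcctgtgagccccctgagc
Gzmb: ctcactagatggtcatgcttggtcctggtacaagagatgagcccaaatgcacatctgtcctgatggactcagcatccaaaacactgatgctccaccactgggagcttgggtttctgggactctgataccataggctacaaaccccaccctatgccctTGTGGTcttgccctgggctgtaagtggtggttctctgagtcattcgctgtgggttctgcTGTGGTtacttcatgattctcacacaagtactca
Ncr1: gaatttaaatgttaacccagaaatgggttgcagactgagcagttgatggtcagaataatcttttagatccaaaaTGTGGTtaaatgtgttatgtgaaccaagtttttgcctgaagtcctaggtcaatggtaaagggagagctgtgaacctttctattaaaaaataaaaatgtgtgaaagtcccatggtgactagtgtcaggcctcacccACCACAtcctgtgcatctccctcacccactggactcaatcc
Each of the 3 stretches held 2 matches, and none overlapped another. The 3 genes were picked and do not stand for all natural killer genes.

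Over windows of 250 bases before to 50 bases after each start, 15 of the 20 granule genes with a promoter entry held the RUNX letters (75.0%), beside 18.9% of 27025 genes. The granzyme genes, which are related copies and share ancestry, gave 8 of 9, and the other granule genes 7 of 11 (63.6%). Among these 8 were Gzmd, Gzme, Gzmf and Gzmg, with 2 matches each. Gzmd, Gzme and Gzmg were not listed in these data, and Gzmf was above 0 in the ligated library alone. Over all natural killer lists the count was 44 of 128 genes (34.4%). Klra4, Klra8, Eomes and Gzmk held 0 matches, and Gzma, Prf1 and Klrb1c held 1 each. The other motifs searched on both strands were AGGTGT, in 7 of 20 granule genes against 15.7% of all genes, its longer form AGGTGTGA, in 2 of 20 against 1.48%, and the ETS core AGGAAG, in 15 of 20 against 38.4%. AGGTGTGA contains AGGTGT, so its matches are counted under both. These matches describe letters only, and binding was not measured.

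The cluster carried the natural killer markers. Levels here are means over cells of a gene's UMIs per 10000 UMIs of the cell, and the UMI is a tag that marks 1 captured RNA molecule. Of 13 markers, 12 were highest in cluster 1 among the 12 clusters. Klra4, Gzmc, Klrb1c, Klra8 and Klre1 were given with the name of the cluster, so their peak there is not separate support. The exception was Nkg7, a granule membrane protein, at 18.3 in cluster 1 and 22.8 in cluster 2, whose cells are T cell-like. Of the other markers not given with the name, Xcl1 stood at 20.2 in cluster 1 and 11.1 in the next highest cluster. Klrd1 stood at 8.19 and 3.77, Ncr1 at 3.65 and 1.66, Prf1 at 2.05 and 0.909, and Eomes at 0.977 and 0.506. Klra4, encoding the activating receptor Ly49D, stood at 6.07 in cluster 1 and at 1.08 in the next highest cluster, a ratio of 5.603. Klrb1c, the NK1.1 antigen, stood at 6.10 against 1.87, a ratio of 3.25. Klre1, a lectin-like receptor that forms pairs with the Klri proteins, had a ratio of 2.99.

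**Figure D1:**
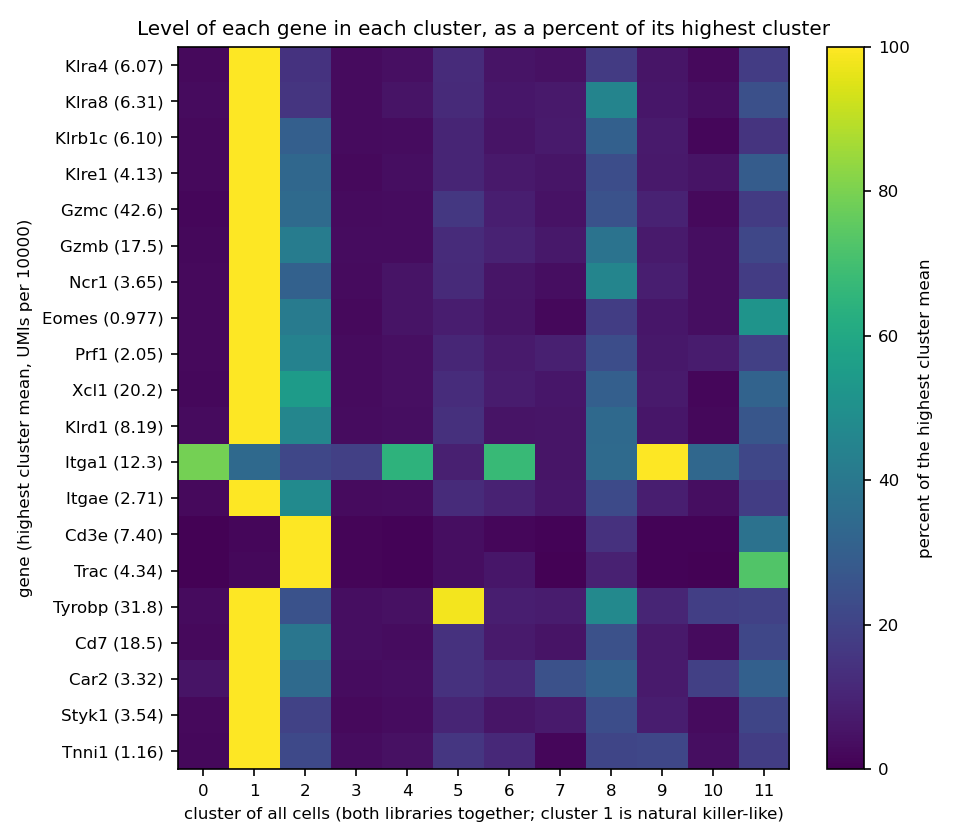
Level of 20 genes (rows, with the highest cluster mean in UMIs per 10000) in the 12 clusters (columns), as a percent of the highest cluster of each gene. Receptor and granule genes peak in cluster 1, while Cd3e and Trac peak in cluster 2.

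The 15 genes most restricted to the cluster, by the ratio to the next cluster at a level of 1 or more, held 8 lectin-like receptors (Klra4, Klra3, Klri2, Klra9, Klrb1f, Klrb1c, Klrb1a and Klre1) and Gzmc, a granzyme, at 42.6 with a ratio of 2.89. The other genes were Tnni1 and Cox6a2, muscle-type troponin and cytochrome oxidase subunits, Styk1, a kinase-like membrane protein, Clnk, an adaptor of immunoreceptor signalling, Sulf2, a sulfatase, and Car2, a carbonic anhydrase. Tnni1 stood at 1.16 with a ratio of 4.55, Cox6a2 at 1.37 with 4.44, Styk1 at 3.54 with 4.25 and Car2 at 3.32 with 2.90. These ratios describe the clustering, which used the same genes, and they are not tests.

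T cell genes stood below their level in the T cell-like cluster, by amounts that differed between genes. Cd3e, a signalling chain of the T cell receptor, was at 0.0139 in the mock and 0.144 in the ligated natural killer-like column, against 5.88 and 7.57 in the T cell-like column. Trbc1 and Trbc2, the constant parts of the receptor's beta chain, were closer: Trbc1 was at 2.88 and 2.53 against 5.73 and 4.92, and Trbc2 at 2.01 and 1.90 against 11.3 and 16.1. Cd3g, another chain of the receptor complex, was at 1.501 and 2.026 against 11.7 and 13.8. Cd4, Cd8a and Cd5 were at 0 in all 679 mock cells, which allows a share of cells with a UMI of up to 0.442% (counting error only), and at 0.00577, 0.0346 and 0.0072 in the ligated cells.

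The receptors lie together in a gene complex on chromosome 6, and several share sequence near their 3′ ends, where droplet libraries read. In GENCODE M21 on GRCm38 (mm10), Klra4 lies at chr6:130043731-130067271, Klra8 at chr6:130115226-130129898, Klrb1c at chr6:128778485-128789215 and Klrd1 at chr6:129591782-129598775. Gzmc lies at chr14:56231441-56234656 and Gzmb at chr14:56258838-56262260. Of the runs of 50 bases in the last 400 bases of their transcripts, 41.0% of those of Klra9, 36.6% of Klra3, 26.5% of Klra7 and 15.7% of Klra8 also occur in another gene. The share was 57.5% for Klrc1, 20.4% for Klrc2, 21.7% for Klrb1b and 15.4% for Klrb1c. None did for Klra4, Klrd1, Klre1, Gzma, Gzmb or Gzmc. The levels of Klra9, Klra3, Klra7, Klra8, Klrc1, Klrc2, Klrb1b and Klrb1c are therefore uncertain, since how reads from shared stretches were assigned is not given in the sources used here.

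Of the 11406 ligated cells, 3353 were natural killer-like, a share of 29.4% whose 95% interval by the exact Clopper-Pearson method ran from 28.6% to 30.2%. Of the 4199 mock cells, 679 were, a share of 16.2% (15.1% to 17.3%). Among natural killer-like and T cell-like cells together the order was the opposite, at 70.6% of 4746 ligated cells (69.3% to 71.9%) and 81.4% of 834 mock cells (78.6% to 84.0%). With macrophage-like cells added, the shares were 61.8% of 5426 ligated (60.5% to 63.1%) and 74.5% of 911 mock cells (71.6% to 77.3%). The cluster thus took a larger share of all ligated cells and a smaller share of these leukocytes. Cluster 0 went the other way, at 25.8% of ligated and 56.3% of mock cells. Shares within a library depend on each other, so a lower share of another cluster raises this one. The intervals cover counting error only, and the efficiency of the bead depletion cannot be told apart from the operation.

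Depth per cell was of like size in both libraries where it could be seen. The total of a single cell's UMIs was traced in 164 ligated cells (median 8277.5, from 1327 to 42900) and in 32 mock cells (median 8032.5, from 4566 to 25617), a sample that favours deep cells. The ligated column had 17444 symbols above 0, and the mock column 14232.

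Markers of several other cell types stood higher in the ligated column. Over epithelial, endothelial, fibroblast, mural and erythroid markers, the column held a median of 7.33% of the ligated library's mean level (32 markers) and of 1.77% of the mock library's (35 markers). Single markers ranged from 2.95% to 80.3% in the ligated and from 0% to 87.0% in the mock library. The free RNA subtracted below rests on these medians and is a rough estimate. The summed macrophage and monocyte list of 9 genes was 0.0903 in mock and 1.11 in ligated cells, with Adgre1, Mrc1 and Fcgr1 at 0 in mock and Mrc1 at 0 in ligated cells. Sums were 2.42 and 4.82 for 8 endothelial genes (Cldn5 at 0 in mock), 0.178 and 1.42 for 7 fibroblast genes and 0.643 and 2.10 for 7 ductal genes (Krt5 and Krt19 at 0 in mock). The acinar and erythroid lists went the other way. The 7 acinar genes summed to 1.13 in mock and 0.0725 in ligated cells, with Aqp5, Bhlha15 and Smgc at 0 in mock cells, Muc19 at 0 in every mock cluster and Smgc also at 0 in ligated cells. The 5 erythroid genes summed to 1.55 and 0.739, with Hbb-bs at 0.830 and 0.390.

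**Figure D2:**
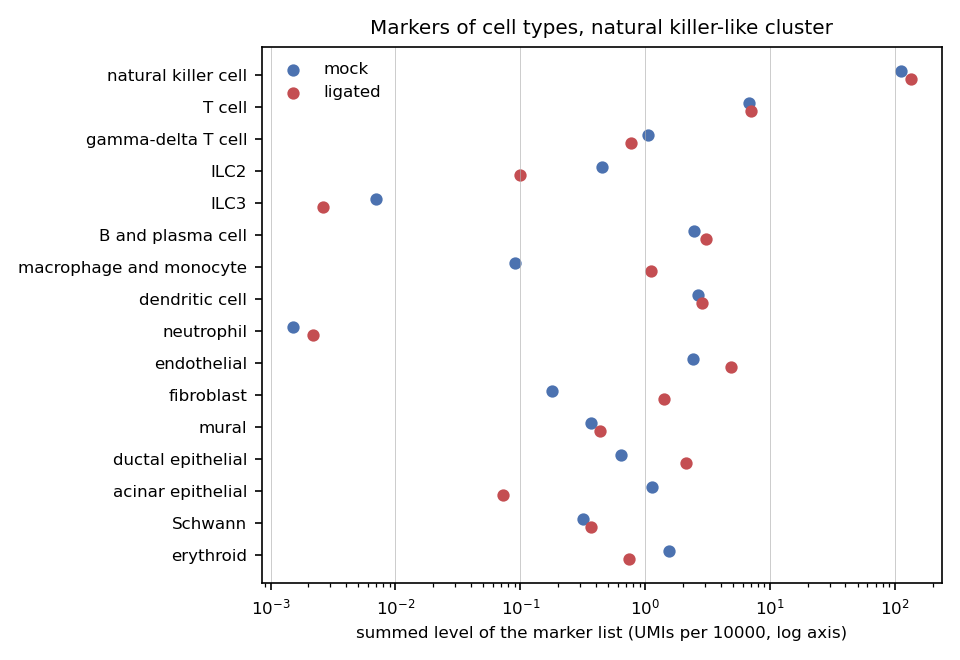
Summed level of each marker list in the natural killer-like cluster of each library, in UMIs per 10000 on a log axis (points, 1 library each). The natural killer list was at 112.3 in mock and 134.2 in ligated cells, with Gzmc alone at 23.2 and 46.5. Of its 13 genes, 9 were lower and 4 higher in the ligated library. Their median log2 of ligated over mock, with 0.1 added to each value, was -0.17. The macrophage, fibroblast, ductal and endothelial lists were higher in the ligated library.

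The differences between the libraries were read by size. With 0.1 added to each value, a gene counted as higher or lower where log2 of the ligated over the mock value reached 1 in either direction and the larger value reached 0.5. This scale understates the differences of low genes. Of 2824 genes at 0.5 or more, 60 passed (2.12%), 42 higher in the ligated library (1.49%) and 18 lower (0.637%). With the free RNA estimated above subtracted, the split was 29 higher and 23 lower. Many of the large differences recurred in other clusters. Of the 60 genes, 25 passed the same way in 8 or more of the 9 clusters that both libraries fill with 50 cells or more. Leaving these out gives 22 higher and 13 lower. Of the same 60 genes, 26 share exons with another gene on the same strand (43.3%, beside 11.2% of the genes at 0.5 or more).

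The largest of these wide differences were those of Rnasek, at 0 in mock and 2.53 in ligated cells, Nme2, a nucleoside diphosphate kinase, at 0.156 and 5.36, and Atp6v0c, a subunit of the proton pump of lysosomes, at 0.0174 and 1.73. Mgp, the matrix Gla protein of stromal cells, was at 0.0598 and 1.92, and falls to 0 in both libraries when free RNA is subtracted. Rpl13a, a ribosomal protein gene, was at 3.74 and 32.7, Tomm6, a subunit of the mitochondrial import pore, at 0.175 and 2.19, and Grcc10 at 0.703 and 5.65. Rab4b, Fam89b, Timm23 and Ube2v1 followed, with differences between 2.39 and 2.72. All of these genes except Atp6v0c and Mgp share exons with another gene.

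In the other direction AY036118 stood at 19.2 in mock and 1.19 in ligated cells, Lars2, the mitochondrial leucyl-tRNA synthetase, at 6.96 and 2.10, and Gm42418, a transcript that overlaps ribosomal RNA and passed in 5 clusters, at 177 and 66.0. The T cell-like cluster gave 20.4 and 1.48 for AY036118, 7.05 and 1.98 for Lars2 and 184 and 65.8 for Gm42418. Coro1b, an actin regulator, was at 0.770 and 0.0555, and Nxf1, an mRNA export factor, at 0.971 and 0.337, with Spag7 at 0.597 and 0.199. Symbols above 0 in 1 library alone numbered 3150 for ligated and 684 for mock. The part of the gene annotation in these differences was not tested.

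**Figure D3:**
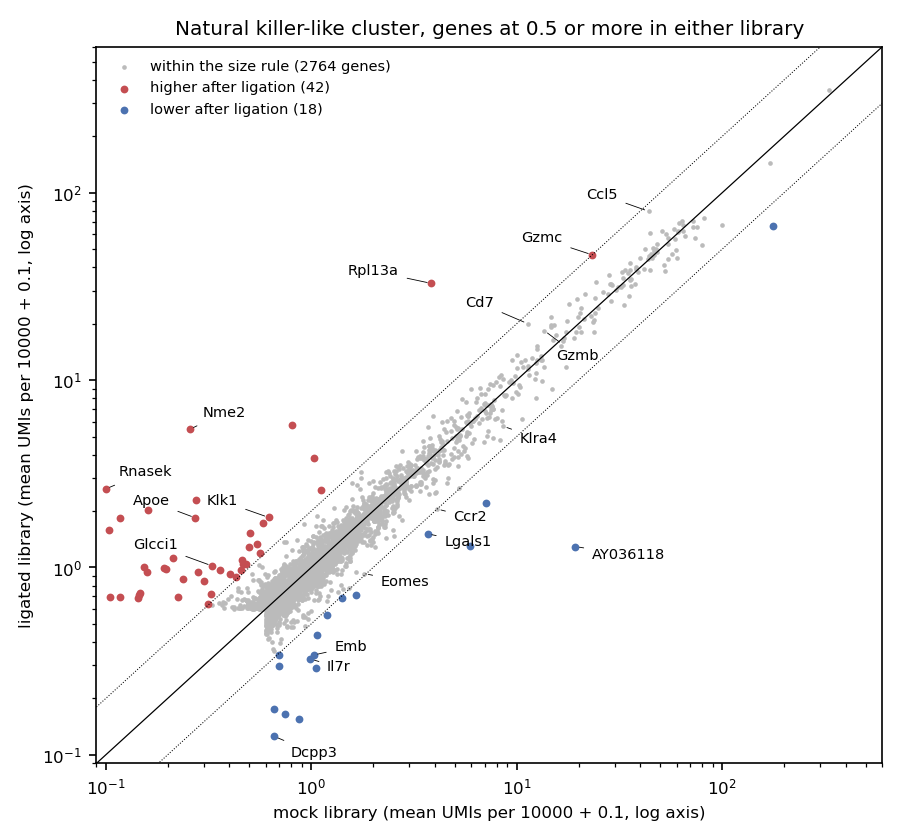
Each point is 1 of 2824 genes in the natural killer-like cluster, with the mock mean on the horizontal and the ligated mean on the vertical axis (UMIs per 10000 plus 0.1, log axes); dotted lines mark a 2-fold difference. The 42 higher and 18 lower genes are coloured, and Gzmc lies on the line.

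Of 15 activating receptor and adaptor genes at 0.5 or more, 0 passed in either direction, beside 2.12% of all 2824 genes at that level. In lists this short, here and below, a count of 0 or 1 cannot be told apart from that share. The median difference over 17 genes at a mean of 0.05 or more was -0.12, beside -0.0047 over all 8895 genes at that mean. Klra4 was at 8.48 in mock and 5.58 in ligated cells (-0.59), Klra8, the activating receptor Ly49H, at 7.09 and 6.15 (-0.20), and Klrb1c at 6.15 and 6.09 (-0.01). Ncr1, the NKp46 receptor, was at 4.59 and 3.46 (-0.40), and Klrk1, the NKG2D receptor for stress ligands, at 5.58 and 4.94 (-0.17). Klra4, Ncr1 and Klra8 lay lower in the ligated library, none by 2-fold, and Klrb1c was nearly level, with the shared 3′ sequence of Klra8 and Klrb1c given above.

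The adaptors differed among themselves. Tyrobp (DAP12), which couples Ly49D and Ly49H to kinases, was at 24.2 in mock and 33.4 in ligated cells (0.46), and Fcer1g, the Fc receptor gamma chain, at 28.0 and 36.2 (0.37). Hcst (DAP10), the partner of NKG2D, was at 5.70 and 6.31 (0.14), and Cd247 (CD3 zeta) at 0.291 and 0.215 (-0.31). Cd226 (DNAM-1), a receptor for nectin-like ligands on stressed cells, was at 1.65 and 3.12 (0.88), the largest difference of the list among genes measured in both libraries. Cd244a was listed in the ligated library alone under that name. Joined to its older symbol Cd244, it stood at 1.89 in mock and 2.46 in ligated cells (0.36). Over the other compared clusters, T cell-like cells included, the median difference was 1.16 for Cd226 and 1.96 for Fcer1g. Both were larger than in the natural killer-like cells.

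The inhibitory and partner receptors had 11 genes at 0.5 or more, 0 of them past the size rule, and a median difference of -0.05. Klrd1 (CD94), the partner chain of the NKG2 receptors, was at 8.66 in mock and 8.10 in ligated cells (-0.10). Klre1 was at 5.61 and 3.83 (-0.54), and Cd160, a receptor of the immunoglobulin family, at 1.09 and 0.560 (-0.85). Klra9 and Klra3 lay the other way, at 5.72 and 6.36 (0.15) and at 2.08 and 2.57 (0.29), with the shared 3′ sequence given above. Checkpoint receptors were low in both libraries: Lag3 at 0.176 and 0.247, Tigit at 0.0896 and 0.0560, and Pdcd1 (PD-1) at 0.000712 and 0.0104.

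Of 12 granule genes, 1 passed, Gzmc, which encodes granzyme C. It was at 23.2 in mock and 46.5 in ligated cells, a difference of 1.0001, just past the threshold, that becomes 0.97 after free RNA is subtracted. It passed in all 9 compared clusters: in the T cell-like cells it was at 6.06 and 15.7, and in the 7 other clusters between 0.0382 and 0.609 in the mock and between 1.10 and 7.67 in the ligated library. Gzmb, the granzyme that cleaves caspases, was at 13.5 and 18.3 (0.44). In the same 7 other clusters Gzmb was between 0.0128 and 0.602 in the mock and between 0.571 and 2.34 in the ligated library. Gzma, a tryptase-like granzyme, was at 8.42 and 6.84 (-0.30), and Prf1, perforin, which forms the pore, at 2.46 and 1.97 (-0.30).

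The granzymes thus did not differ in a common direction. Nkg7 was at 14.6 and 19.0 (0.38), and Ctsw, a protease of killer lymphocytes, at 9.36 and 12.7 (0.44). Serpinb9, an inhibitor of granzyme B, was at 0.701 and 0.383 (-0.73), and its relative Serpinb6b at 0.864 and 0.433 (-0.85). Gzmk, a granzyme of memory T cells, was near 0 at 0.0138 and 0.0163, whereas the T cell-like cells had 0.336 and 1.35. The median of the granule list was -0.18 over 15 genes at 0.05 or more, and 0.11 when only genes at a mean of 0.5 or more were kept. Over the other compared clusters, T cell-like cells included, the median difference of Ctsw was 1.84, larger than here.

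Of 8 effector cytokine and death ligand genes, 0 passed. The median was 0.05 (-0.02 after subtraction of free RNA, beside -0.07 over all genes). Ccl5, a chemokine stored in granules of killer cells, was at 43.8 in mock and 79.6 in ligated cells (0.86). In the T cell-like cells it was at 52.1 and 94.99. In the 7 other compared clusters Ccl5 was between 0.0109 and 3.06 in the mock and between 3.39 and 18.1 in the ligated library. Xcl1, which attracts cross-presenting dendritic cells, was at 17.5 and 20.7 (0.24). Ccl4 and Ccl3, chemokines made on activation, were at 6.12 and 4.73 (-0.36) and at 2.11 and 1.60 (-0.37). Ifng, interferon gamma, was low in both, at 0.291 and 0.204, against 1.41 and 1.02 in the T cell-like cells.

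**Figure D4:**
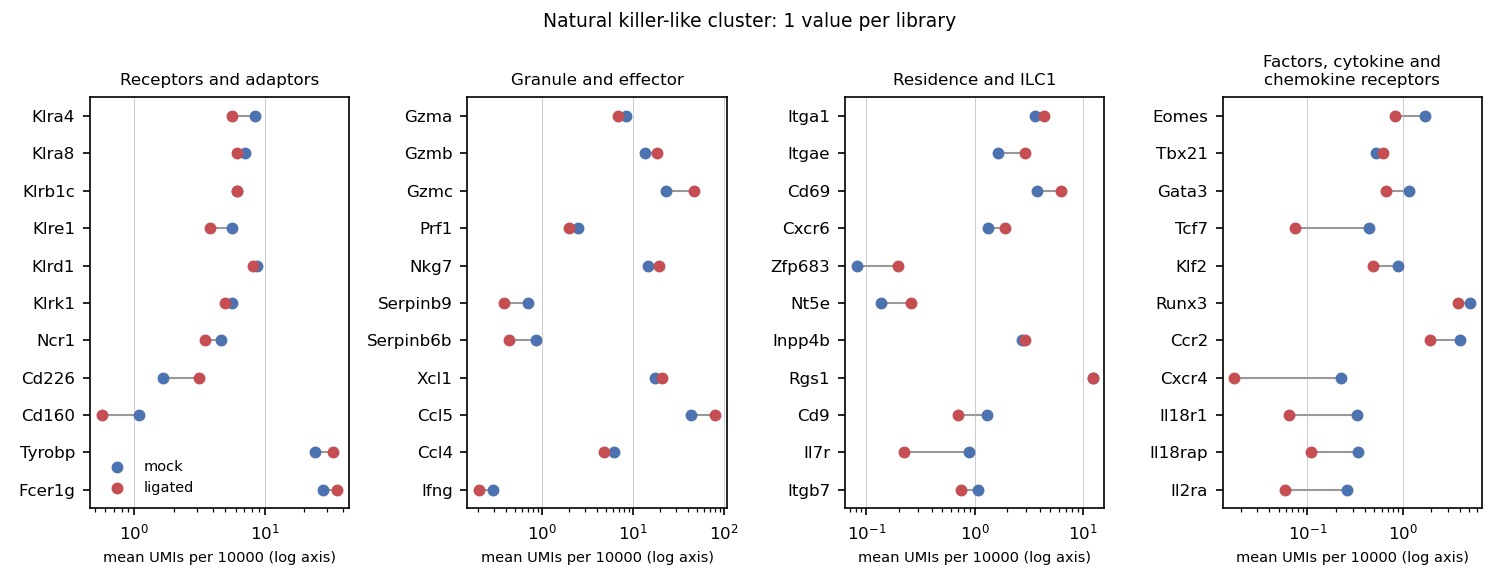
Mean UMIs per 10000 (log axes) of 44 genes in the natural killer-like cluster, 1 point per library, grouped by role. Klrb1c and Rgs1 nearly coincide, Gzmc is apart by 2-fold, and Il7r, Tcf7, Cxcr4 and the IL-18 receptor genes are lower in the ligated library.

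Residence genes were present in both libraries. Itga1, the CD49a collagen receptor, was at 3.63 in mock and 4.33 in ligated cells (0.25). It is not particular to this cluster: over both libraries it stood at 4.21 in cluster 1, 9.70 in cluster 0 and 12.3 in cluster 9. Rgs1, a G protein regulator of resident lymphocytes, was at 12.3 in each library. Itgae, the CD103 receptor for E-cadherin, was at 1.64 and 2.92 (0.79), and Cd69, which holds lymphocytes in tissue by blocking S1pr1, at 3.80 and 6.31 (0.71). Cxcr6, the receptor for Cxcl16, was at 1.34 and 1.92 (0.49). Zfp683 (Hobit), a factor of resident lymphocytes, was low at 0.0815 and 0.194. Over the other compared clusters, T cell-like cells included, the median difference was 1.49 for Cd69 and 1.02 for Cxcr6, larger than here. Of 12 genes of this list at 0.5 or more, 0 passed higher, and 1 passed lower, Il7r. The list median was 0.09 (-0.05 after subtraction of free RNA, beside -0.07 over all genes).

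Il7r, the IL-7 receptor alpha chain, which marks helper-like innate lymphocytes, was at 0.891 in mock and 0.225 in ligated cells (-1.61). It was at 6.22 and 1.63 in the T cell-like cells, so both lymphocyte clusters were lower in the ligated library. Cd9, a tetraspanin, was at 1.30 and 0.705 (-0.80).

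Genes of circulating and mature natural killer cells were low in both libraries. Klf2, which drives exit from tissue, was at 0.899 in mock and 0.484 in ligated cells (-0.78). Of 4 genes of the list at 0.5 or more, 0 passed. Itgam (CD11b) was at 0.349 and 0.307, Klrg1 at 0.129 and 0.0831, and S1pr5, the exit receptor of mature natural killer cells, at 0.0119 and 0.00704.

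Transcription factors had 12 genes at 0.5 or more and 0 past the size rule, with a median of -0.23. Eomes, the factor that separates natural killer cells from type 1 innate lymphoid cells, was at 1.71 in mock and 0.829 in ligated cells (-0.96), just short of the threshold. Its values in the T cell-like cells were 0.417 and 0.403. Tbx21 (T-bet), shared by both lineages, was at 0.523 and 0.616 (0.20), so Eomes and Tbx21 differed in opposite directions. Gata3 was at 1.15 and 0.662 (-0.72), Runx3 at 5.10 and 3.81 (-0.41) and Id2, the factor that all innate lymphoid cells need, at 12.3 and 10.8 (-0.18).

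Lower-expressed genes were read with the minimum at 0.1 in place of 0.5, where 7692 genes entered, and 135 passed (1.76%), 103 higher (1.34%) and 32 lower (0.416%). Among transcription factors 1 of 19 then passed, Tcf7 (TCF-1), a factor of early lymphocytes, at 0.441 in mock and 0.0736 in ligated cells (-1.64). Among cytokine receptors and JAK-STAT genes 0 of 23 were higher and 3 lower: Il18r1 at 0.336 and 0.0647 (-1.40), Il18rap at 0.339 and 0.108 (-1.08), which together form the IL-18 receptor, and Il2ra (CD25) at 0.261 and 0.0588 (-1.18). The chains of the IL-15 receptor that maintain these cells differed less, with Il2rb at 7.37 and 6.81 (-0.11) and Il2rg at 3.28 and 3.85 (0.22).

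These genes include several that helper-like innate lymphoid cells also carry. The ILC2 marker list summed to 0.451 in mock and 0.0988 in ligated cells, nearly all of it Il1rl1, the IL-33 receptor, at 0.423 and 0.0749 (-1.58). Rxrg was at 0 in mock cells. Il5 and Il13 were at 0 in every mock cluster, so the list does not measure them there. The gamma-delta T cell list summed to 1.05 and 0.770, most of it Trdc at 0.717 and 0.422. The part of such cells in the lower Il7r, Tcf7 and Il18r1 was not tested.

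Chemokine receptors and integrins had a median of -0.48, the lowest of the 10 natural killer lists, with 0 of 8 genes past the size rule. Ccr2, the receptor for monocyte chemokines, was at 3.99 in mock and 1.95 in ligated cells (-0.99), just short of the threshold, and Cxcr4, the bone marrow homing receptor, at 0.225 and 0.0172 (-1.47). Itgb1, the beta chain that pairs with CD49a, was at 5.67 and 3.74 (-0.59). Itgal and Itgb2, the chains of LFA-1, were at 1.45 and 0.981 (-0.52) and at 1.84 and 1.29 (-0.48). In the T cell-like cells the same genes had a median of -0.35, with Cxcr4 at 0.313 in mock and 0.0638 in ligated cells.

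TGF-beta pathway genes had 0 of 6 past the size rule and a median of -0.09. Tgfb1 itself was at 1.89 in mock and 1.95 in ligated cells. Its receptor chains Tgfbr1 and Tgfbr2 were at 0.510 and 0.573 and at 0.798 and 0.705. Smad7, the inhibitor that the pathway induces, was at 2.36 and 2.76 (0.22), and Ski, a repressor of SMAD factors, at 0.975 and 0.570 (-0.68).

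A smaller size was also read, a difference of at least 1.5-fold, chosen after seeing the data. Of the 2824 genes, 158 then passed (5.59%), 84 higher (2.97%) and 74 lower (2.62%). Over the natural killer lists, those higher were Cd226 among activating receptors (1 of 15), Gzmc among granule genes (1 of 12), Ccl5 among effector genes (1 of 8), and Itgae and Cd69 among residence genes (2 of 12). Those lower were Klra4 (1 of 15 activating receptors), Cd160 (1 of 11 inhibitory receptors) and Serpinb6b and Serpinb9 (2 of 12 granule genes). Also lower were Cd9 and Il7r (2 of 12 residence genes), Klf2 (1 of 4 circulating genes) and Eomes and Gata3 (2 of 12 factors). Ski (1 of 6 TGF-beta genes) and Ccr2 and Itgb1 (2 of 8 chemokine receptors and integrins) were lower too. The cytokine receptor and JAK-STAT list had 0 of 12 in either direction.

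Proliferation genes were not all low. The list of 15 summed to 7.54 in mock and 7.10 in ligated cells, beside 7.74 and 7.76 in the library means. Mki67, a mark of dividing cells, was low, at 0.0233 in mock and 0.0344 in ligated cells, against 7.39 in cluster 11, where it was highest. Of 3 proliferation genes at 0.5 or more, 0 passed. Glycolysis genes gave 0 of 9 past the size rule with a median of 0.01, and MHC class I genes 0 of 13 with a median of 0.12. Of 12 mitochondrially encoded genes, 1 passed, mt-Atp8, a subunit of ATP synthase, at 5.81 and 1.19 (-2.19), and it passed in 7 clusters. The list had a median of -0.20 and a sum of 296.7 in mock and 286.9 in ligated cells. At 1.5-fold mt-Nd4l was also lower, at 5.14 and 2.57 (-0.97).

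Interferon response genes had a median of 0.29, which becomes -0.0009 after subtraction of free RNA, beside -0.07 over all genes. The gene past the size rule, 1 of 12, was Ifitm3, at 0.442 in mock and 1.23 in ligated cells (1.30). It stood at 17.5 and 15.8 in the mean of each library, and its difference becomes -0.40 after the subtraction. Irf7, a factor that amplifies interferon, was at 0.338 and 0.645 (0.77, and 0.63 after the subtraction). Immediate early genes, which rise during dissociation, had 0 of 12 past the size rule and a median of -0.01, with Junb at 12.3 and 7.95 (-0.62) and Jun at 5.89 and 8.86 (0.58).

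Of the remaining genes past the size rule, some were not shared by most clusters. Igflr1, a receptor of the TNF receptor family that binds IGF-like ligands, was at 0.00387 in mock and 1.49 in ligated cells (3.94). It passed in 2 clusters, these and the T cell-like cells, where it was at 0.0142 and 0.866, and it shares exons with another gene. Gng10, a G protein gamma subunit, was at 0.0176 and 0.592 (2.56) and passed in 5 clusters. Zfp869 was at 0.0909 and 0.892 (2.38) and passed in 4. In the T cell-like cells Gng10 was at 0.0401 and 0.788, and Zfp869 at 0.0609 and 0.806. On the lower side were Dcpp3, a secreted gland protein, at 0.560 and 0.0254 (-2.40), and Taf6l at 0.642 and 0.0649 (-2.17). Ptp4a1, a phosphatase, was at 0.557 and 0.0760 (-1.90), and Rnf149, a ubiquitin ligase, at 0.959 and 0.191 (-1.87). B930036N10Rik was at 1.56 and 0.610 (-1.22). T cell-like values were 0.644 and 0.0770 for Taf6l, 0.379 and 0.0596 for Ptp4a1, and 0.548 and 0.130 for Rnf149. They were 1.80 and 0.663 for B930036N10Rik, while Dcpp3 was nearly level there, at 0.0349 and 0.0368. Gng10, Rnf149 and B930036N10Rik also share exons with another gene.

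Emb, a cell adhesion protein, was at 0.927 in mock and 0.241 in ligated cells (-1.59), and Lgals1, galectin-1, at 3.59 and 1.41 (-1.29). In the T cell-like cells Lgals1 was at 8.25 and 7.49. Dusp5, a phosphatase of ERK kinases, was at 1.09 and 0.457 (-1.10), and Tsc22d3 (GILZ), a glucocorticoid-induced gene, at 1.31 and 0.589 (-1.03).

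Higher in the ligated library were Ctla2b, a protease inhibitor of lymphocytes, at 0.4 and 1.18 (1.36), and Glcci1, a glucocorticoid-induced transcript, at 0.229 and 0.920 (1.63). Both share exons with another gene. Genes of other cells were also among the higher ones. Apoe was at 0.173 and 1.74, Cd74, the MHC class II chaperone, at 0.180 and 0.852, Klk1, a kallikrein of gland ducts, at 0.520 and 1.75, and Col4a1, a basement membrane collagen, at 0.199 and 0.745. Their library means were 6.92 and 19.1 for Apoe, 4.53 and 12.03 for Cd74, 17.0 and 24.9 for Klk1, and 18.0 and 10.0 for Col4a1. After subtraction of free RNA, Apoe gives 1.55 (0.0498 in mock and 0.339 in ligated cells), Cd74 -0.997, Klk1 -1.68 and Col4a1 0.15.

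The rule's threshold passed close to several of the genes described. Just past it were Gzmc (1.0001), Col4a2 (1.03) and Tsc22d3 (-1.03), and just short of it Ccr2 (-0.99), Gpr65, an acid-sensing receptor (-0.97), mt-Nd4l (-0.97), Eomes (-0.96) and Ifitm2 (0.95).

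The T cell-like cluster of the same libraries gave its own values for the same genes. In it, 87 of 2887 genes passed (3.01%), 45 higher (1.56%) and 42 lower (1.45%). Gzmk was at 0.336 in mock and 1.35 in ligated T cell-like cells and Nkg7 at 11.5 and 24.04, each a larger difference than in the natural killer-like cells. For Ccr2 the T cell-like values were 1.93 and 1.11, and for Klf2 3.54 and 1.61. Because both clusters come from the same libraries, these differences are not independent of each other, and no test of their difference was possible with 1 library per group.

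**Figure D5:**
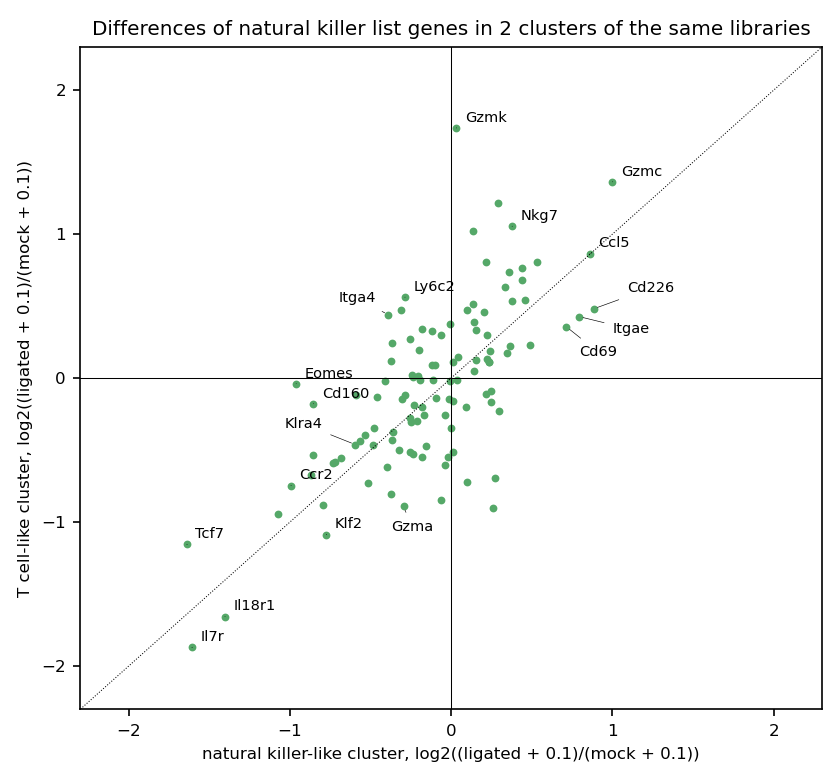
Difference between libraries of 112 natural killer list genes (points) in the natural killer-like cluster (horizontal) and the T cell-like cluster (vertical), as log2((ligated + 0.1)/(mock + 0.1)). Il7r, Tcf7 and Il18r1 are lower and Gzmc and Ccl5 higher in both clusters, while Eomes is at -0.96 in the natural killer-like and -0.04 in the T cell-like cluster.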

How the data were processed

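The deposited tables hold, per the file headers, a mean per cluster and library. From the values, these are linear means over cells of a gene's UMIs per 10000 UMIs of the cell (unit other, neither counts nor CPM): every column sums to 10000. The authors used Cell Ranger 6.0.1, Seurat and mm10, per the submitters' processing notes. Cell filters, clustering and any removal of doublets are not given in the sources used here, and no doublets were called. Cell barcodes were not used here. The 2 tables of all cells were used, and 2 of a fibroblast-type subset were not.

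Cell numbers were recovered from joint against split means (tolerance 2e-09). Gene names turned into dates (21) were restored from row order, and 19637 of 20140 symbols matched a table of mouse gene names. The 684 mock-only and 3150 ligated-only symbols were left out of differences. No test was run, since each group has 1 library. The pseudocount was 0.1, and list medians used genes at a mean of 0.05 or more. Free RNA was estimated as the median ratio of the cluster's value to the library mean over markers of other cells. The scripts were tested on simulated data. Named are list genes, the 15 largest differences each way past the size rule, and the 15 genes most restricted to the cluster; Ifitm2, Gpr65, Col4a1, Col4a2, Emb, Lgals1, Dusp5, Tsc22d3, Ctla2b, Glcci1, Cd74 and Klk1, where outside that rule, were chosen after their values were seen. Members, lists and markers were chosen with earlier results of these data known. Python 3.11.15, pandas 2.3.3, numpy 2.4.6 and scipy 1.17.1 were used. Alternatives covered the pseudocount, scaling, free RNA, symbols, minimum level, size and shared exons.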

Additional observations from a re-analysis of the deposited data

How the results depend on the processing

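With 60 genes past the size rule, 42 higher and 18 lower, the count followed the thresholds. A pseudocount of 1 gave 14 (10 higher, 4 lower), a minimum of 2 gave 13 (8 and 5), no minimum gave 135 (103 and 32), and a difference of at least 2 gave 24 (19 and 5). Rescaling without mitochondrial and ribosomal protein genes gave 92, 65 of them higher, with 3906 genes tested. Keeping all symbols gave 132 (87 and 45), and leaving out genes with shared exons gave 34, 21 of them higher. The alternatives chosen after seeing the data were a difference of at least 1.5-fold, with 158 (84 and 74), and leaving out genes that passed in 8 or more clusters, with 35, 22 of them higher. Subtracting free RNA gave 52, with 55.8% higher against 70.0%, and turned the direction of Cd74 (-0.997), Ifitm3 (-0.40) and Klk1 (-1.68), whose values this setting reduces by construction. A pseudocount of 0.01 gave 70, and centring or joining renamed symbols kept all 60. All 111 alternative values of list medians lay within 0.29 of the reported ones. Least squares gave the same cell shares. No paired analysis was possible because each group has 1 library. With 1 library per group, none of these settings shows how far libraries of the same group differ, and 679 mock cells limit the levels of rare transcripts more than 3353 ligated cells do.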
